A study of Mus musculus with 10 samples.

Results

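The insulin and IGF1 signalling genes described here comprised 9 of the 26180 mouse genes with a curated RefSeq transcript: Igf1, Igfbp5, Insr, Igf1r, Irs1, Irs2, Pik3r1, Akt1 and Akt2. They were chosen by name and not by a measured value, but with earlier results of these data known. Chromatin immunoprecipitation sequencing (ChIP-seq) was performed on skeletal muscle of C57BL/6J mice, labelled as 10 weeks old, that were either fed or starved for 24 h. In each condition 1 library was made with antibodies against the glucocorticoid receptor (GR), lysine-specific demethylase 1 (LSD1), and histone H3 mono- or dimethylated at lysine 9 (H3K9me1 and H3K9me2), and 1 from input chromatin. The labels name no allele and no agent other than starvation, and how many animals entered a library is not given in the sources used here, although the study states a minimum number of mice per condition. A peak was assigned to a gene when its midpoint lay in the gene body or within 30 kb of one of its transcription start sites (TSS) in GRCm38 (mm10), and the 9 windows together spanned 1.06 Mb. With 1 library per group the fed and starved lists could not be compared by a test, and all differences below are between single libraries.

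Insulin and IGF1 bind receptor tyrosine kinases, which phosphorylate the insulin receptor substrates. These adaptors recruit phosphoinositide 3-kinase (PI3K) through its regulatory subunit, and the lipid it makes activates the AKT kinases, which promote glucose uptake and protein synthesis and restrain protein breakdown in muscle. Starvation lowers insulin and raises glucocorticoids, the ligands of GR, which binds glucocorticoid response elements (GREs) in DNA. LSD1 removes mono- and dimethyl groups from histone H3 lysines.

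The sequences of 6 sites at 4 of the genes are given first, because they were the highest GR fold near any member (Pik3r1 upstream), the highest within the windows (Irs1 and Akt2), the only GR peak of fed muscle at Pik3r1, and the only promoter with a peak in every GR and LSD1 list (Irs2). All are read from GRCm38 from 5′ to 3′. Capitals in the first 5 mark the best match to the GRE-like palindrome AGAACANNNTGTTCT where it had at most 3 mismatches among its 12 fixed bases, and capitals in the Irs2 promoter mark the bases inside all 4 GR and LSD1 peaks. The Pik3r1 upstream site (chr13:101811989-101812288, plus strand, the central 300 bases of the fed peak), the Pik3r1 intron site (chr13:101719444-101719656, plus strand), the Irs1 intron sites of the fed list (chr1:82239507-82239674, plus strand) and of the starved list (chr1:82281721-82282020, plus strand, the central 300 bases), the Akt2 intron site (chr7:27630155-27630347, plus strand) and the 250 bases before the Irs2 TSS (chr8:11008930-11009179, minus strand) read:
Pik3r1 upstream: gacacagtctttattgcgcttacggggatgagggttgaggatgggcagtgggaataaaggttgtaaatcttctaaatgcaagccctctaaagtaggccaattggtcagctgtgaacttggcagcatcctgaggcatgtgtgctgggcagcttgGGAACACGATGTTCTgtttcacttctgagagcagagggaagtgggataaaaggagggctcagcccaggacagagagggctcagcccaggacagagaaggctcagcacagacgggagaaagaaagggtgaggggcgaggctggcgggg
Pik3r1 intron: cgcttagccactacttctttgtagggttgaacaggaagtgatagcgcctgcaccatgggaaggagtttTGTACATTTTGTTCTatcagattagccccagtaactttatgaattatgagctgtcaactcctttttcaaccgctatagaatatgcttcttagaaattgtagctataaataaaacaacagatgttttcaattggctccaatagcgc
Irs1 intron, fed: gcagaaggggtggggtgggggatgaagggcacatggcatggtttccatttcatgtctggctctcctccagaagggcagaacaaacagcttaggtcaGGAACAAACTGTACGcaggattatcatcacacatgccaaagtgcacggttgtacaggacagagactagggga
Irs1 intron, starved: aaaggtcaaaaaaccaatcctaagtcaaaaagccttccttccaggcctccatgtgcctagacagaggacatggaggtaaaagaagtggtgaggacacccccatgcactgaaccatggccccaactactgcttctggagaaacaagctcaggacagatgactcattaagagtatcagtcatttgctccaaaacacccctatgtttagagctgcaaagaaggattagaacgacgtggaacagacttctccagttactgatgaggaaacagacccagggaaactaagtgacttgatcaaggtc
Akt2 intron: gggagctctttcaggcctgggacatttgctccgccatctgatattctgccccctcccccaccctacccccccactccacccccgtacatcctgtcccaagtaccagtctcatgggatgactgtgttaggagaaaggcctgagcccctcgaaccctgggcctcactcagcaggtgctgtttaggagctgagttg
Irs2 promoter: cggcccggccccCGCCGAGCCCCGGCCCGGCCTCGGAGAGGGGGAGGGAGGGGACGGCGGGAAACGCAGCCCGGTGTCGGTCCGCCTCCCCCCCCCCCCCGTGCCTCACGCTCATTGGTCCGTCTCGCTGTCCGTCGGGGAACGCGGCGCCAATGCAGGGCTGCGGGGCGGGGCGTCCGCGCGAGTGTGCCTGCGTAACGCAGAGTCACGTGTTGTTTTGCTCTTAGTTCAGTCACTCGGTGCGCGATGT
The Pik3r1 upstream match differed from the palindrome by A1G alone, with positions counted from 1 at its 5′ end and the base of the palindrome written first. The Pik3r1 intron match differed by A1T and A3T, and the Irs1 fed match by A1G, T13A and T15G. The best match in the Irs1 starved and Akt2 sites had 4 mismatches. A match with at most 3 mismatches is common, since 29.8% of all fed and 21.3% of all starved GR peaks held one.

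GR peaks were called near 8 of the 9 genes in fed muscle, all but Igf1, and near all 9 in starved muscle. Over all RefSeq genes, 43.1% had a fed and 66.5% a starved GR peak in the same kind of window. LSD1 peaks were likewise near 8 genes in the fed list, again all but Igf1, where the share over all genes was 51.1%, and near 9 in the starved list, where it was 83.7%. H3K9me1 was called near 6 genes in fed muscle (38.0% of all genes) and near 9 in starved muscle (65.6%). H3K9me2 was called near all 9 genes in fed muscle (95.5% of all genes) and near Igf1 alone in starved muscle (10.2%). Since 95.5% of all genes held an H3K9me2 peak in the fed list, the count of 9 is no feature of these genes. The median window of the 9 genes was also longer than that of all genes, at 88.3 kb against 60.0 kb, so densities per 100 kb are given beside the counts.

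**Figure D1:**
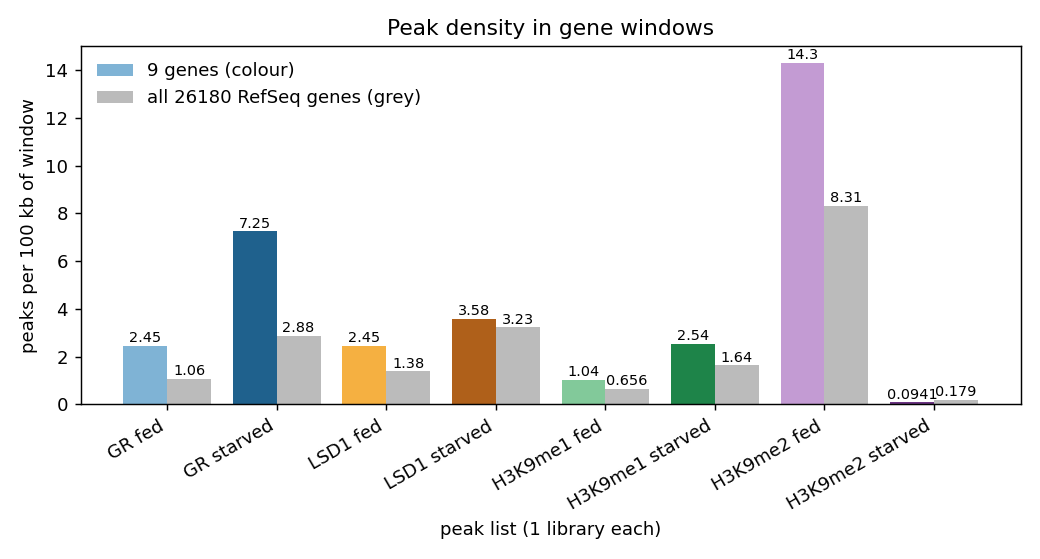
Peaks per 100 kb of window (vertical axis) in each of the 8 peak lists (horizontal axis), with coloured bars for the 9 insulin and IGF1 signalling genes and grey bars for all RefSeq genes. The coloured bar is the higher in every list except H3K9me2 starved, and the LSD1 starved bars stand at 3.58 and 3.23.

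In total 26 fed and 77 starved GR peaks lay in the windows, and their starved to fed ratio was 2.96 against 2.68 for the whole lists. Their density was 2.45 and 7.25 peaks per 100 kb, whereas over the windows of all genes it was 1.06 and 2.88, each peak being counted once per window that holds it. The number of GR peaks was higher in the starved list at 8 genes and equal at Igfbp5, and over all genes 56.4% had more and 4.26% fewer starved than fed GR peaks. When the starved list was shortened to the 14108 peaks of the fed list by q-value, the windows held 29 starved GR peaks and the ratio was 1.12, with more starved peaks at 5 genes (19.9% of all genes) and fewer at Igf1r and Irs2 (19.3%). At a fold enrichment of at least 5 only 1 GR peak remained, in fed muscle. The whole lists then held 1572 of 14108 fed and 686 of 37783 starved GR peaks, so most GR peaks anywhere fell below this fold. For LSD1 the windows held 26 fed and 38 starved peaks, and the ratio of 1.46 lay below the 3.99 of the whole lists, which include peaks outside any gene window. Per 100 kb the LSD1 peaks numbered 2.45 fed and 3.58 starved in the 9 windows, and 1.38 and 3.23 over the windows of all genes. Every starved LSD1 count here rests on the deposited list, which is far longer than the text of the study describes. By that text the starved list would be the shorter of the pair, so the direction of LSD1 counts between conditions depends on which list is used. The ratio in the 9 windows also turned with the settings. Among peaks with q-values up to 0.01 it was 0.273, from 11 fed and 3 starved peaks, against 0.899 for the whole lists, and with equally long lists it was 0.308, from 26 and 8 peaks. LSD1 peaks were more numerous in the starved list at 6 genes as deposited (65.3% of all genes) and less so at Akt1 (11.5%). With equally long lists they were more numerous at 0 genes (20.4%) and fewer at 6 (36.3%).

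**Figure D2:**
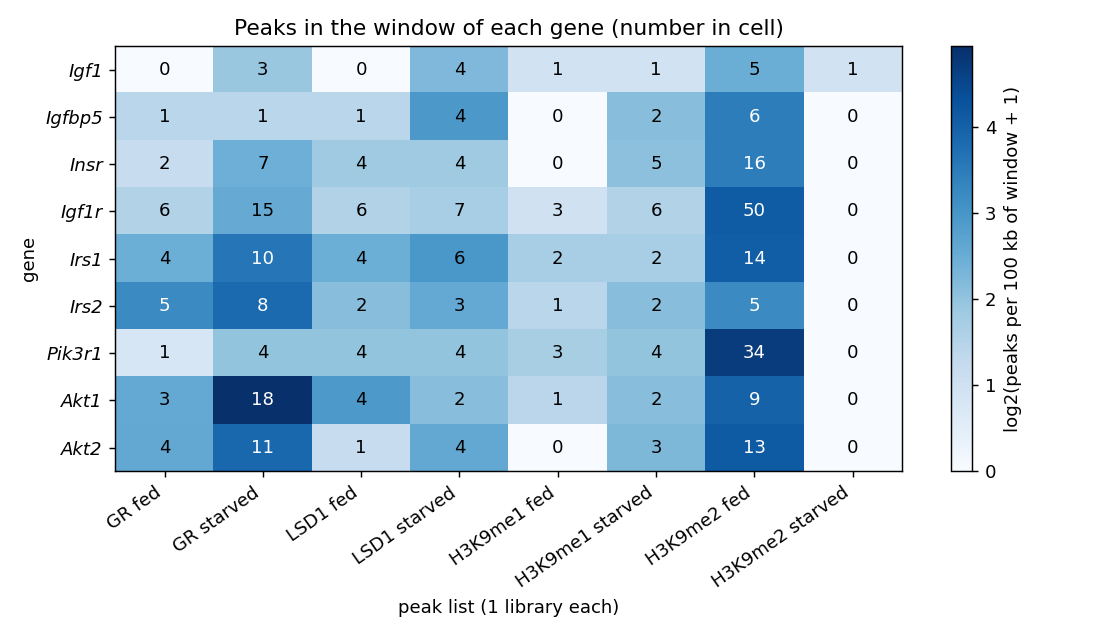
Number of peaks in the window of each gene (rows) in each peak list (columns, 1 library each), with the cell colour giving log2 of the peaks per 100 kb of window plus 1. The darkest cells are Akt1 in the GR starved list, with 18 peaks, and Pik3r1 in the H3K9me2 fed list, with 34.

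Igf1 (chromosome 10, 87858265 to 87937047) encodes insulin-like growth factor 1, a ligand of the pathway that muscle itself also makes. No GR and no LSD1 peak was called there in fed muscle, and none lay within 100 kb of its TSSs. In starved muscle 3 GR peaks were called, with fold enrichments over input of 2.56, 2.75 and 2.92, the second of them in a promoter (1000 bp upstream to 100 bp downstream of a TSS). The 4 starved LSD1 peaks had q-values between 0.0395 and 0.0748. Only 1 of these 7 starved peaks, the intronic GR peak with a q-value of 0.00350, passed a q-value of 0.01. Over the whole starved lists 34.7% of GR and 10.2% of LSD1 peaks passed it. The 3 GR folds at Igf1 lay around the median of 2.70 over the whole starved list.

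Igfbp5 (chromosome 1, 72858065 to 72874865) encodes an IGF-binding protein that is abundant in muscle. It carried 1 GR peak in each condition, but at different places. The fed peak was intronic, 3.50 kb downstream of the TSS, with a fold of 3.72, whereas the starved peak lay in the promoter with a fold of 3.25. At this promoter LSD1 was called in both conditions, with a fold of 4.01 in fed and 3.11 in starved muscle, on peaks of 66 and 62 bp.

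Among the receptors, Insr (chromosome 8, 3150922 to 3279617), the insulin receptor, had 2 fed and 7 starved GR peaks and 4 LSD1 peaks in each condition. Its promoter held 2 GR peaks in starved muscle, with folds of 2.99 and 2.61, and none in fed muscle. LSD1 peaks overlapped each other at the start of the gene in both conditions, at 4.28 in fed and 3.50 in starved muscle. The highest fed GR peak, with a fold of 4.07 in an intron 17.5 kb downstream of the TSS, had no starved counterpart. Igf1r (chromosome 7, 67952257 to 68233667), the IGF1 receptor, is a gene of 281 kb and held 6 fed and 15 starved GR peaks. Per 100 kb these were 1.93 and 4.82, a density reached by 19.2% and 27.9% of all genes. A pair of intronic Igf1r sites carried peaks in all 4 GR and LSD1 lists. The site at 68215345 to 68216751, 264 kb downstream of the TSS, had GR folds of 3.49 in fed and 3.77 in starved muscle, and LSD1 folds of 4.57 and 3.83. At the other, 68127891 to 68129385, the GR folds were 3.15 and 3.20 and the LSD1 folds 4.06 and 3.28. Both lay nearer to the TSS of Pgpep1l than to that of Igf1r, as did 3 of the 6 fed and 6 of the 15 starved GR peaks of this window. The highest LSD1 fold of any member, 6.64 in fed muscle, was also in an Igf1r intron nearer to Pgpep1l, on a peak of 61 bp with no GR peak. All of its bases (100%) are marked as repeats in the genome sequence, whereas the median over the fed LSD1 list was 0%.

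The insulin receptor substrates are the adaptors between the receptors and PI3K. Irs1 (chromosome 1, 82233105 to 82291439) had 4 fed and 10 starved GR peaks. The highest GR fold in any of the 9 windows, 5.69 with a q-value of 5.82e-14, was an Irs1 intron peak of the fed list, 51.8 kb downstream of the TSS. It was called again in starved muscle with a fold of 3.63, so that the starved to fed ratio of 0.637 was the lowest of all 19 GR pairs. In starved muscle the highest fold in a window was also in an Irs1 intron, 4.83 with a q-value of 6.54e-11, at 9.57 kb from the TSS, where no fed GR peak was called. LSD1 was not called on either site, although a starved LSD1 peak of 49 bp with a fold of 4.84 lay beside the latter, at 82281412 to 82281460. At the Irs1 TSS LSD1 was called in fed muscle only, on 1103 bp with a fold of 3.88, overlapping a fed GR peak with a fold of 2.80.

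Irs2 (chromosome 8, 10984681 to 11008929) had 5 fed and 8 starved GR peaks in a window of 60.0 kb. Its 8.33 fed GR peaks per 100 kb were reached by 1.88% of all genes, and its 13.3 starved peaks per 100 kb by 5.35%. All 5 fed GR peaks were overlapped by a starved one. The promoter was the only member promoter with a peak in all 4 GR and LSD1 lists. There GR was called with a fold of 3.57 on 430 bp in the fed list and 4.01 on 1119 bp in the starved list. The LSD1 folds were 3.96 in fed and 3.59 in starved muscle. Their q-values were 0.0129 and 0.0357, so neither LSD1 peak passed a q-value of 0.01. The 250 bases before the TSS printed above were 72.8% G or C, and 238 of them lay inside all 4 peaks. The TSS of 9530052E02Rik also lay in this window, and 3 of the 5 fed and 5 of the 8 starved GR peaks were nearest to it.

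Pik3r1 (chromosome 13, 101680761 to 101768217) encodes the main regulatory subunit of PI3K. It had 1 fed and 4 starved GR peaks in its window, or 0.738 and 2.95 per 100 kb, against 1.06 and 2.88 over all genes. The fed peak lay in an intron of the long transcript, 26.9 kb upstream of the internal TSS, with a fold of 4.03. It overlapped a fed LSD1 peak with a fold of 4.35 and a fed H3K9me2 peak, and none of the starved lists had a peak on it. The start of the long transcript carried a starved GR peak of 1719 bp with a fold of 2.81. Under it LSD1 was called at 3.57 in fed and 3.33 in starved muscle, on peaks that did not overlap each other. The starved LSD1 peak had a q-value of 0.0748. Another fed LSD1 peak, with a fold of 3.74, lay 0.713 kb upstream of this TSS and had no GR or starved LSD1 peak on it.

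The strongest GR peak near Pik3r1, and near any of the 9 genes, lay outside the window. In the lists used here it was found after the values were seen, when peaks up to 100 kb from a TSS were listed. The site was already known from the study, whose primers for a Pik3r1 enhancer both lie in the upstream sequence printed above. At 101811891 to 101812386, 43.9 kb upstream of the TSS of the long transcript and nearest to Pik3r1, the GR fold was 11.3 in fed and 11.7 in starved muscle, with q-values of 1.11e-49 and 1.47e-59. By fold it ranked 58 of the 14108 fed GR peaks and 15 of the 37783 starved ones. LSD1 was called on it with a fold of 4.72 in fed and 3.47 in starved muscle, the latter with a q-value of 0.0674. This was the site with the GRE-like match of 1 mismatch printed above, which 2.17% of all fed and 0.712% of all starved GR peaks contained. The GR fold at this site thus differed little between the single fed and starved libraries. The study followed its Pik3r1 enhancer during food deprivation by chromatin immunoprecipitation and quantitative PCR, on muscle samples other than those sequenced. It reports that GR binding there did not change, whereas LSD1 binding first rose and later fell. Within 100 kb the folds above 5 also included a GR peak 89.7 kb upstream of Akt2 (6.73 in fed and 6.86 in starved muscle, nearest to Prx). Another GR peak lay 99.5 kb upstream of Igfbp5 (7.55 in fed and 3.74 in starved muscle, nearest to Tnp1). For LSD1 they were fed peaks 91.7 and 94.8 kb upstream of Igfbp5 (5.80 and 6.31, nearest to Tnp1) and 80.1 kb upstream of Pik3r1 (5.78, nearest to Pik3r1).

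**Figure D3:**
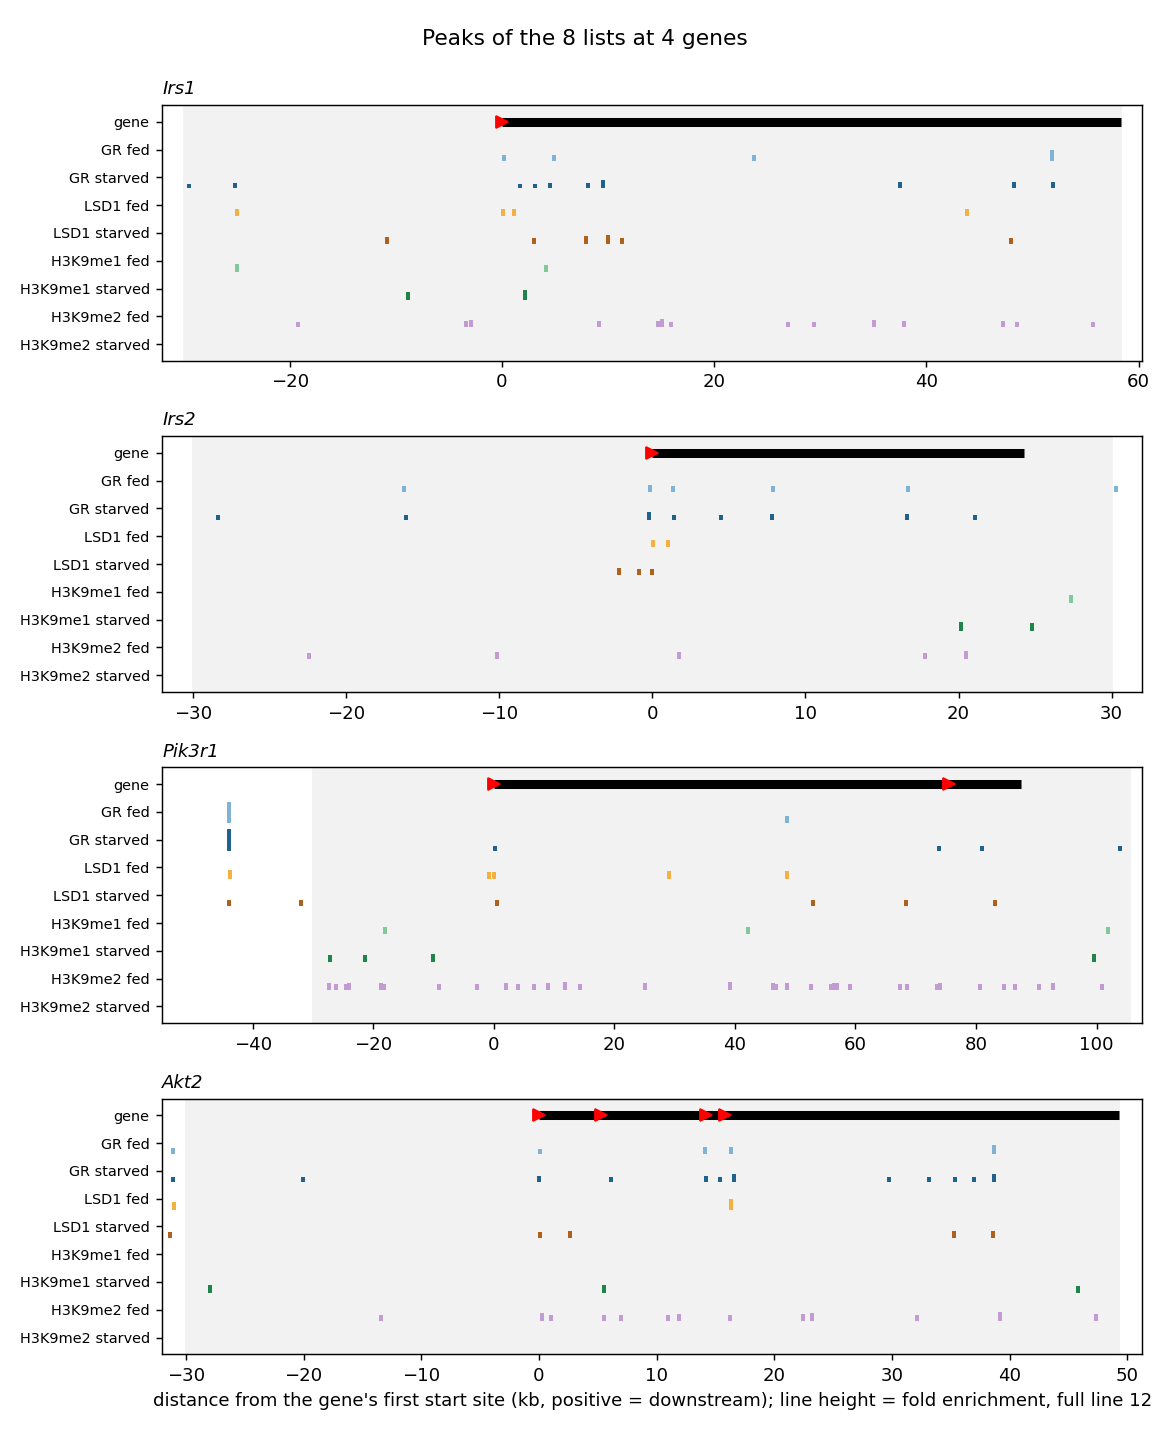
Peaks of the 8 lists (rows) at Irs1, Irs2, Pik3r1 and Akt2 against the distance from the gene's first TSS in kb, with the gene as a black bar, TSSs as red marks, the window shaded and the line height giving the fold enrichment. Outside the shading only GR and LSD1 peaks are drawn. The tallest lines are the fed and starved GR peaks 43.9 kb upstream of Pik3r1, with folds of 11.3 and 11.7.

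Of the kinases, Akt1 (chromosome 12, 112653821 to 112674884) had 3 fed and 18 starved GR peaks, the most starved GR peaks of the 9 genes. At 29.7 per 100 kb its starved density was reached by 0.134% of all genes. The 18 folds ran from 2.44 to 3.63 with a median of 2.67. A q-value of 0.01 was passed by 5 of the peaks, and by 34.7% of the whole starved GR list. Only 5 of the 18 were nearest to an Akt1 TSS, since the window also holds the TSSs of Mir6939, Siva1 and Zbtb42. With equally long lists Akt1 had 3 fed and 5 starved GR peaks. Akt1 was the 1 gene with fewer LSD1 peaks in the starved list, 2 against 4. Its highest paired change was an intronic GR site 6.44 kb from the TSS, which went from 2.88 in fed to 3.63 in starved muscle.

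Akt2 (chromosome 7, 27591552 to 27640826), the isoform most tied to insulin-stimulated glucose uptake, had 4 fed and 11 starved GR peaks. All 4 fed sites were called again in starved muscle at similar folds. The intron site printed above had a GR fold of 4.79 in fed and 4.52 in starved muscle. At 27607561 to 27608762 the GR folds were 4.03 and 4.25, and LSD1 was called in fed muscle alone with a fold of 5.65. Its promoters held GR peaks of 3.04 (TSS at 27591552) and 3.59 (TSS at 27605797) in the fed list, which were 3.21 and 3.35 in the starved list. The ratio of starved to fed fold at the 4 sites ran from 0.934 to 1.06.

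Fed and starved GR peaks were next paired by overlap. A starved GR peak overlapped 19 of the 26 fed ones, or 73.1% (exact Clopper-Pearson 95% CI 52.2 to 88.4, which covers counting error only), against 65.8% of the whole list. In the reverse direction 19 of the 77 starved GR peaks, 24.7%, were overlapped by a fed one, against 24.5%. The median ratio of starved to fed fold was 0.934 over the 19 pairs, with 12 (63.2%) below 1, whereas it was 0.878 over all 9287 pairs, with 78.7% below 1. At the sites already called in fed muscle the folds therefore lay on both sides of equality. The 58 starved GR peaks without a fed one included 45 sites called in no other GR or LSD1 list. For LSD1, 5 of 26 fed peaks, 19.2%, had a starved one on them, against 23.1% of the whole list. All 5 had a lower starved fold, with ratios from 0.776 to 0.906 and a median of 0.819. Over all 3834 LSD1 pairs the median was 0.854 and 87.3% lay below 1, so a lower starved fold was no feature of these genes.

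**Figure D4:**
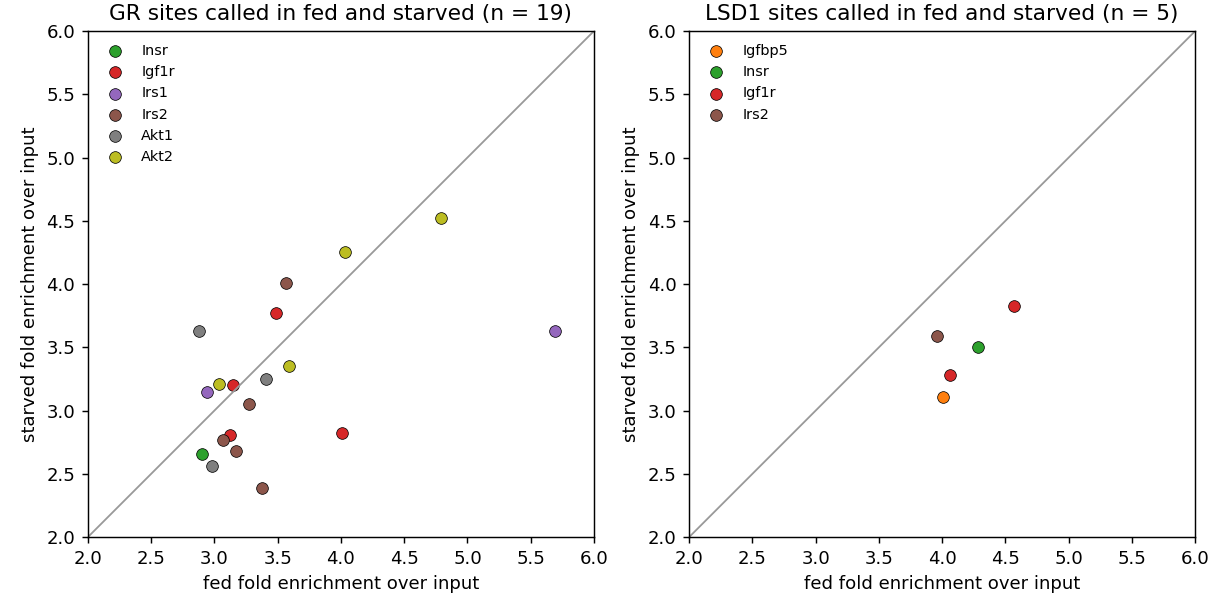
Fold enrichment over input in fed (horizontal axis) and starved muscle (vertical axis) for the sites in the windows of the 9 genes that were called in both conditions, for GR (left, 19 sites) and LSD1 (right, 5 sites), with 1 colour per gene and a line at equal values. The GR sites scatter on both sides of the line, the Irs1 intron site at 5.69 and 3.63 lying farthest below it, and the 5 LSD1 sites lie below the line, as did 87.3% of all LSD1 pairs.

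The overlap of GR with LSD1 was taken within each condition. In fed muscle 8 of 26 GR peaks, 30.8% (95% CI 14.3 to 51.8), were overlapped by LSD1, against 48.3% of all fed GR peaks, a value inside the interval. In starved muscle the share was 12 of 77, or 15.6%, against 14.7%. Taken from the LSD1 side, a starved GR peak overlapped 12 of the 38 starved LSD1 peaks, 31.6% (95% CI 17.5 to 48.7), against 9.14% of the whole list and 12.3% of the starved LSD1 peaks in the window of any gene. The density of starved GR peaks in these windows was also higher than over all genes, 7.25 against 2.88 per 100 kb, and its part in this share was not tested. Of the 26 fed LSD1 peaks 16, or 61.5%, lay on a starved GR peak, against 55.1%. Merging all GR and LSD1 peaks gave 118 sites, of which 84 were called in 1 list and 3 in all 4.

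Promoter peaks were counted separately. GR was called in 2 member promoters in fed muscle, Irs2 and Akt2, where 13.4% of all genes had one. In starved muscle it was called in 6, with Igf1, Igfbp5, Insr and Akt1 added, against 23.3%. LSD1 was called in the promoters of Igfbp5, Igf1r, Irs1, Irs2 and Pik3r1 in fed muscle (22.4% of all genes) and of Igfbp5, Insr, Irs2, Akt1 and Akt2 in starved muscle (16.2%). The midpoint decided what counted as a promoter peak. It left out a fed GR peak centred 0.155 kb inside Irs1 and a starved GR peak 0.268 kb inside Pik3r1, both of which span the TSS. It also left out a fed LSD1 peak centred 0.139 kb inside Insr, which spans the TSS, and a starved one 0.614 kb inside Pik3r1, which does not. The shares over all genes rest on the same midpoint rule, and promoters were not recounted by peaks that span a TSS.

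The NRF1 palindrome GCGCATGCGC, read on both strands with at most 1 mismatch, was in 1 of the 26 fed LSD1 peaks and 2 of the 77 starved GR peaks of these genes. The shares over the whole lists were 4.89% and 3.56%. The fed LSD1 match and 1 of the starved GR matches were the same bases, 18.7 to 18.8 kb upstream of Akt1 and nearest to Zbtb42, and the remaining one lay 25.1 kb upstream of Irs1 and nearest to Rhbdd1. Of all 300-base RefSeq promoters 6.33% held such a match. No peak in the 9 windows held the GRE-like palindrome with at most 1 mismatch, in any GR or LSD1 list. Such a match was rare in the whole lists too, in 2.17% of fed and 0.712% of starved GR peaks. For LSD1 the shares were 0.392% fed and 0.0636% starved, so its absence here is no feature of these genes. With at most 2 mismatches, a limit chosen after the data were seen, it was in the fed Pik3r1 intron peak and in starved GR peaks of Igf1r, Irs1 and Akt1, or 3.85% of the fed and 3.90% of the starved GR peaks of the genes, against 9.75% and 4.33% of the lists.

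H3K9me2 had 152 peaks in the fed windows and 1 in the starved windows, a ratio of 0.00658 against 0.0386 for the whole lists of 171402 and 6624 peaks. The whole lists include peaks outside any gene window, and the ratio of the 9 genes rests on 1 starved peak. Per 100 kb the peaks numbered 14.3 fed and 0.0941 starved, against 8.31 and 0.179 over the windows of all genes. Every one of the 9 genes had fewer H3K9me2 peaks in the starved list, as did 94.9% of all genes, while 0.386% had more. With equally long lists 3 genes had fewer (19.3%) and 0 had more (7.75%). Pik3r1 had 34 fed H3K9me2 peaks, or 25.1 per 100 kb, which 0.233% of all genes reached. Only 4 of the 34 passed a q-value of 0.01, as did 20.9% of the whole fed list. Igf1r held 50, or 16.1 per 100 kb, and Irs2 and Igf1 the fewest, 5 each. H3K9me1 had more starved than fed peaks at 7 genes (51.3% of all genes) and fewer at 0 (13.5%). Its peaks numbered 11 fed and 27 starved, a ratio of 2.45 against 2.68 for the whole lists. Per 100 kb they numbered 1.04 fed and 2.54 starved, against 0.656 and 1.64 over the windows of all genes. Of these 38 peaks 24 were 50 bp or shorter, and the median length over the whole lists was 49.0 bp fed and 64.0 bp starved. A starved peak lay on 0 of the 11 fed ones, against 2.79% of the whole list. With equally long lists the H3K9me1 ratio was 0.909, from 11 fed and 10 starved peaks, with more at 2 genes (22.7%) and fewer at 4 (25.7%). For both marks the fed library carried the code P2727 and the starved library P2731, so that starvation and library code cannot be told apart. Of the 26 fed LSD1 peaks 5, or 19.2%, overlapped a fed H3K9me2 peak, against 16.8% of the whole list.

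Over the 8 lists the genes with counts most like those of Pik3r1 were Eml1, Spata5, Kat6b, Rbms1 and Tmem135, at Euclidean distances of 0.97 to 1.16 on log2(peaks + 1). Their windows ran from 189 to 294 kb, against 136 kb for Pik3r1. Among 41 other genes of the pathway, 29 (70.7%) had a fed and 37 (90.2%) a starved GR peak, against 43.1% and 66.5% of all genes. An LSD1 peak was near 31 (75.6%) in the fed and 38 (92.7%) in the starved list, against 51.1% and 83.7%. Several paralogs of the members were counted in the same way. Pik3r2, another regulatory subunit, had 5 fed and 14 starved GR peaks, whereas Pik3r3 had 0 and 4. Irs3 had 2 and 5, and Irs4 and the insulin receptor-related receptor Insrr had none. Igf2 had 1 and 3, and the other IGF-binding protein genes Igfbp1, Igfbp2, Igfbp3, Igfbp4, Igfbp6 and Igfbp7 had between 0 and 1 fed and between 0 and 5 starved GR peaks. The muscle genes Ckm, Acta1, Myh4 and Des all had GR and LSD1 peaks in both conditions. Between these lists 43.1% to 83.7% of all genes had such a peak, so this describes the lists and does not identify the cells.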

How the data were processed

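ChIP-seq reads were mapped by the authors to mm10, and broad peaks were called by them per library with MACS2 and the input as control. Each of the 8 deposited lists gives per peak a score (not used here), a fold enrichment over input, which is a ratio, and −log10 of a p-value and of a q-value. The deposited q-values reach 0.0998, so the lists are less strict than the false discovery rate the methods state. The methods also name a blacklist made for another species. The deposited LSD1 starved list holds far more peaks than the text of the study gives for it, and was used as deposited. The text also gives another age than the labels. The 2 input libraries served as controls for calling only. Depth is unknown, since numbers of reads were not used here. GR libraries shared one library code and LSD1 libraries the other.

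The members and lists of genes were chosen with earlier results of these data known. Genes were taken from RefSeq (GRCm38.p6, 45756 curated transcripts on chromosomes 1 to 19, X and Y). Peaks were counted by midpoint in the gene window, and overlap meant at least 1 bp. The text names all 9 members, the GR or LSD1 peaks with the highest folds and those in promoters, paralogs of the members (not all are reported here), and the 5 genes nearest to Pik3r1 by Euclidean distance of log2(peaks + 1) over the 8 lists. Peaks beyond 30 kb and the 6 printed sites were chosen after their values were seen. Counting was tested on simulated data. Python 3.11.15, numpy 2.4.6, pandas 2.3.3 and scipy 1.17.1 were used.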

Additional observations from a re-analysis of the deposited data

How the results depend on the processing

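Of 146 values recomputed under an alternative, 106 kept their direction and stayed within 1.5 times the value reported, or for a share within its interval, 35 moved further and 5 ratios crossed 1. The cause was not tested where a value crossed 1.

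At a q-value of 0.01 or less, 3 genes had a starved LSD1 peak and 0 a starved H3K9me2 peak. The whole starved lists were then down from 66332 to 6790 peaks for LSD1 and from 6624 to 1057 for H3K9me2. The starved to fed ratio of peaks was then 1.42 for GR, 0.273 for LSD1 and 0 for H3K9me2, and 3.70% of starved GR peaks were overlapped by starved LSD1. At a fold of at least 5, the genes with a peak numbered 1 for GR fed, 0 for GR starved, 2 for LSD1 fed, 0 for LSD1 starved, 1 each for H3K9me1 fed and starved, and 0 each for H3K9me2 fed and starved. In the same order the whole lists then held only 1572, 686, 1114, 308, 565, 2139, 767 and 82 peaks. The ratio was 0 for GR and LSD1 and 1.00 for H3K9me1, from 1 or 2 fed peaks, against 0.436, 0.276 and 3.79 for the whole lists, no ratio could be had for H3K9me2, and the shares of GR fed peaks on GR starved or LSD1 fed and of LSD1 fed on H3K9me2 fed peaks were 0. With equally long lists, where the fed H3K9me2 list was cut from 171402 to 6624 peaks, 4 genes had a fed H3K9me2 peak. The ratio was 1.12 for GR, 0.308 for LSD1, 0.909 for H3K9me1 and 0.200 for H3K9me2. The share of starved GR peaks on starved LSD1 was 3.45% and that of fed LSD1 on fed H3K9me2 was 0. Without the gene body, 0 genes had a starved H3K9me2 peak within 30 kb or within 10 kb of a TSS and the H3K9me2 ratio was 0, and within 10 kb 2 genes had a fed and 4 a starved H3K9me1 peak. In windows of 100 kb, chosen after seeing the data, the H3K9me2 ratio was 0.00418. GRE-like matches with at most 2 mismatches, also chosen after seeing the data, were in 1 GR fed and 3 GR starved peaks, and with at most 3 in 7 (26.9%, against 29.8% of the list) and 13 (16.9%, against 21.3%), and in 1 peak of each LSD1 list (3.85% and 2.63%, against 10.6% and 7.61%). Merging near peaks, counting any base, all RefSeq transcripts and a 50% overlap moved none of the values they were run on. Leaving out Igf1r, which had the most peaks over the fed and starved lists of each antibody, moved none of the ratios. For GR it tied with Akt1, with 6 fed and 15 starved peaks at Igf1r and 3 and 18 at Akt1. Leaving out Akt1 was not run. No paired analysis was possible because each group held 1 library.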
